A study of Mus musculus with 2 samples.

Results

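Inhibitory neurons of the hindbrain and spinal cord arise from neighbouring progenitor domains, and each domain hands its daughter cells a set of transcription factors that steers migration, wiring and transmitter choice. Many of these factors fade after birth, while some stay on and can serve as a trace of developmental origin in the mature neuron. The results below describe 10 such genes, *En1*, *Gata3*, *Pax2*, *Pax8*, *Lhx1*, *Lhx5*, *Dmbx1*, *Tfap2b*, *Prox1* and *Bhlhe22*, out of the 28692 genes counted in single cells of the mouse ventral parafacial region, a strip of the ventral medulla that controls breathing. The 10 genes were chosen by earlier results on these same cells, from how often they were detected, alone and in pairs, in neurons with *Slc32a1*, the vesicular GABA and glycine transporter. Their presence in those neurons is therefore given as a description and supports nothing by itself.

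Cells came from wild-type C57BL6/J mice of 10 days of age, for which the labels name no transgene. One library (untreated, batch 1) pooled 8 mice, 4 male and 4 female, and the other (4OH-tamoxifen, batch 2) pooled 8 mice of the same sexes that had received 0.2 mg of 4OH-tamoxifen daily for 3 days. With 1 library per condition, treatment, batch and mice cannot be told apart, no test between conditions was possible, and all intervals below are exact 95% intervals that cover counting error only. After filtering, 3339 untreated and 8558 4OH-tamoxifen cells remained, with medians of 3628 and 2411 unique molecular identifiers (UMIs, each standing for 1 captured RNA molecule) per cell. The libraries shared 32 cell barcodes among the kept cells.

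*Slc32a1* neurons were taken as cells with at least 1 *Slc32a1* UMI that fell in none of the non-neuronal classes described below. They also needed at least 2 of the 4 neuronal genes *Snap25*, *Syp*, *Tubb3* and *Elavl2*. They numbered 466 (104 untreated, 362 4OH-tamoxifen) of the 655 kept cells with an *Slc32a1* UMI, and untreated neurons had a median depth of 7941 UMIs and 4OH-tamoxifen neurons 4181. The label held against its defining genes, since 93.3% (90.7 to 95.4%) of these neurons had *Gad1*, *Gad2* or *Slc6a5*, the GABA-synthesizing enzymes and the glycine transporter. Only 5 also had an *Slc17a6* UMI and 20 a *Chat* UMI. The cells compared with them were 191 *Slc17a6* (excitatory) neurons and 128 *Chat* (cholinergic) neurons, each without UMIs of the other transmitter genes used here as gates, and 6 non-neuronal classes gated on their markers, among them 2575 oligodendrocytes, 2397 astrocytes and 996 microglia.

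The members fall into several families. *En1* (ENSMUSG00000058665, chr1:120602418-120607992) encodes the engrailed homeodomain protein that marks V1 interneurons, a ventral inhibitory class, and *Gata3* (ENSMUSG00000015619, chr2:9857078-9890034) encodes a zinc finger protein of the inhibitory V2b class. *Pax2* (ENSMUSG00000004231, chr19:44756045-44837871) and *Pax8* (ENSMUSG00000026976, chr2:24420560-24475599) encode paired-domain proteins that act in several dorsal and ventral inhibitory classes. *Lhx1* (ENSMUSG00000018698, chr11:84518284-84525535) and *Lhx5* (ENSMUSG00000029595, chr5:120431699-120441223) encode LIM homeodomain proteins that maintain *Pax2* and inhibitory transmitter genes in the dorsal horn. *Dmbx1* (ENSMUSG00000028707, chr4:115915119-115939926) encodes a paired-type homeodomain protein, and *Tfap2b* (ENSMUSG00000025927, chr1:19208914-19238576) encodes the transcription factor AP-2 beta. *Prox1* (ENSMUSG00000010175, chr1:190118035-190170714) encodes the prospero homeodomain protein and *Bhlhe22* (ENSMUSG00000025128, chr3:18054174-18057517) a basic helix-loop-helix protein needed by a class of dorsal horn inhibitory interneurons. Coordinates are those of GENCODE on GRCm38. *Gata3*, *Pax2*, *Lhx5* and *Prox1* overlap other genes in the files, of which 1, overlapping *Gata3*, lies on the same strand. The effect of that overlap on the *Gata3* counts was not tested.

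Windows upstream of the start sites are shown for the genes whose co-detection is described below. *Lhx1* and the long noncoding gene *Lhx1os*, detected in many of the same neurons, start back to back on chromosome 11 and share the stretch between their starts, and *Dmbx1* formed the most frequent co-detected pair relative to its product with *Tfap2b*. Both windows lie outside annotated exons, read 5′ to 3′ from RefSeq on GRCm38.p6, and capitals mark matches, on either strand, to the words GCCNNNGGC and GCCNNNNGGG that AP-2 proteins bind.
*Lhx1* to *Lhx1os*, chr11:84525536-84525659, plus strand: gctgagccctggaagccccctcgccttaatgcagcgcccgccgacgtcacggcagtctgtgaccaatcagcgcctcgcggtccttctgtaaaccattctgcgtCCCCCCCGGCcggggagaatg
*Dmbx1*, chr4:115939927-115940176, minus strand: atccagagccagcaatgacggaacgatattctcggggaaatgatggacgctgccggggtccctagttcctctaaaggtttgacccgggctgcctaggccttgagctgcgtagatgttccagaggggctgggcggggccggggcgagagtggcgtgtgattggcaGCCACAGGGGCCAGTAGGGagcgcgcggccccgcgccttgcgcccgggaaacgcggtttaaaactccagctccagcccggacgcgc

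The stretch of 124 bases between *Lhx1* and *Lhx1os* was 66.1% G or C and held 1 such match. The *Dmbx1* window held 2 matches side by side. Of 32851 RefSeq windows of 250 bases upstream of a start, 30.6% held 1 of the 2 words or both, so a match is common and is given only as a description. The 8 members with an entry had 11 such windows, of which 6 held a match, in 5 of the members.

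Most *Slc32a1* neurons had a UMI of at least 1 member. The count was 350 of 466, or 75.1% (70.9 to 79.0%), with 83 of 104 cells (79.8%) untreated and 267 of 362 cells (73.8%) given 4OH-tamoxifen. Only 41 of 191 *Slc17a6* neurons (21.5%, 15.9 to 28.0%) and 8 of 128 *Chat* neurons (6.25%, 2.74 to 11.9%) had a member, although the median depth of these classes was 4759 and 4505 UMIs against 4431.5 in *Slc32a1* neurons. In microglia, a cell type of another origin given here for comparison, the share was 4.52% (3.31 to 6.00%) at a median depth of 2924.5 UMIs. After each cell was thinned to 2000 UMIs the shares were 57.3% in *Slc32a1* neurons, 11.2% in *Slc17a6* neurons, 2.46% in *Chat* neurons and 2.69% in microglia, leaving out 19, 12, 6 and 177 shallower cells. Shares were thus lower at equal depth, and the 116 *Slc32a1* neurons without a member had a median of 3571.5 UMIs against 4861 for the 350 with one.

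Several members were often found in the same inhibitory neuron. Among *Slc32a1* neurons, 144 had 1 member, 121 had 2, 59 had 3 and 26 had 4 or more, up to 6 in 2 untreated cells. In *Slc17a6* neurons 36 of 41 cells with a member had just 1, and in *Chat* neurons all 8 did. Oligodendrocytes had the next highest share among the gated classes, 38.1% (36.3 to 40.04%), and 870 of their 982 cells with a member had *Prox1*, as described below.

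**Figure D1:**
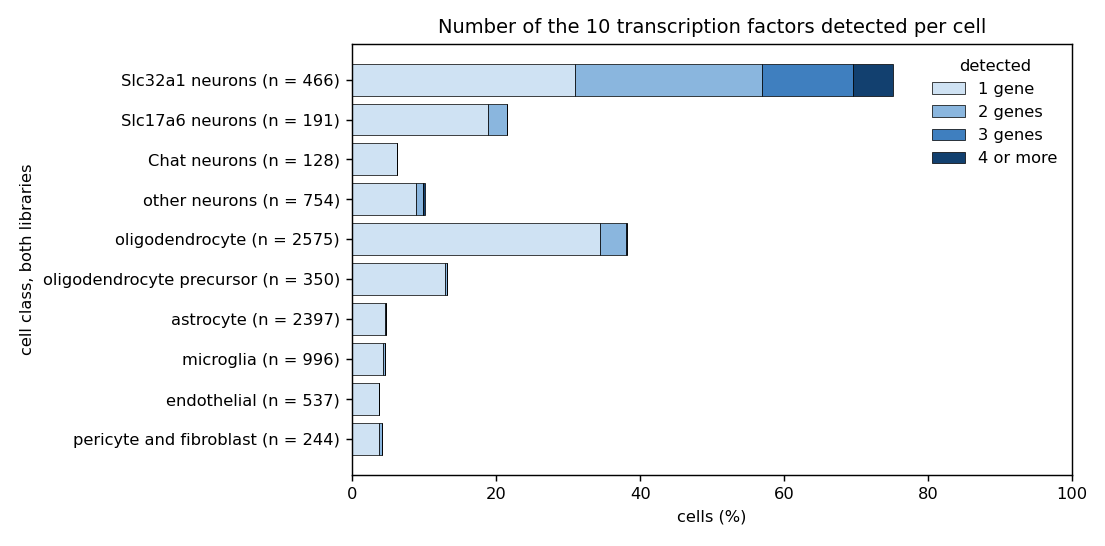
Horizontal bars give the percentage of cells (x axis) of each class (y axis, both libraries together, number of cells in brackets) in which 1, 2, 3 or at least 4 of the 10 genes had a UMI. The bar of *Slc32a1* neurons reaches 75.1%, that of oligodendrocytes 38.1% and that of *Slc17a6* neurons 21.5%, and 26 of the 466 *Slc32a1* neurons had at least 4 members.

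The members differed widely in how many *Slc32a1* neurons they marked. *Bhlhe22* led with 149 of 466 neurons (32.0%, 27.8 to 36.4%; 41 of 104 untreated and 108 of 362 4OH-tamoxifen cells). *Prox1* followed in 110 neurons (23.6%, 19.8 to 27.7%; 29.8% untreated and 21.8% 4OH-tamoxifen) and *Pax2* in 105 (22.5%, 18.8 to 26.6%; 28.8% and 20.7%). The intervals of *Prox1* and *Pax2* overlapped, and that of *Bhlhe22* did not reach down to either share.

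*Dmbx1* was in 70 neurons (15.0%, 11.9 to 18.6%; 22.1% untreated and 13.0% 4OH-tamoxifen), *Tfap2b* in 65 (13.9%, 10.9 to 17.4%; 18.3% and 12.7%), *Pax8* in 51 (10.9%, 8.26 to 14.1%; 19.2% and 8.56%) and *Lhx1* in 43 (9.23%, 6.76 to 12.2%; 12.5% and 8.29%). Each of these 4 overlapped its neighbour in the order within counting error. *En1* in 32 neurons (6.87%, 4.74 to 9.56%; 3.85% untreated and 7.73% 4OH-tamoxifen), *Gata3* in 26 (5.58%, 3.68 to 8.07%; 2.88% and 6.35%) and *Lhx5* in 22 (4.72%, 2.98 to 7.06%; 10.6% and 3.04%) were the least often detected over both libraries, with overlapping intervals. Their order differed between the libraries, *Lhx5* having the highest of these shares in untreated and the lowest in 4OH-tamoxifen neurons. Most positive cells held few molecules: the highest count in 1 cell was 12 UMIs, for *Tfap2b*, and 83 of the 105 *Pax2* cells had a single UMI. For *Tfap2b*, 41 of 65 cells had at least 2.

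**Figure D2:**
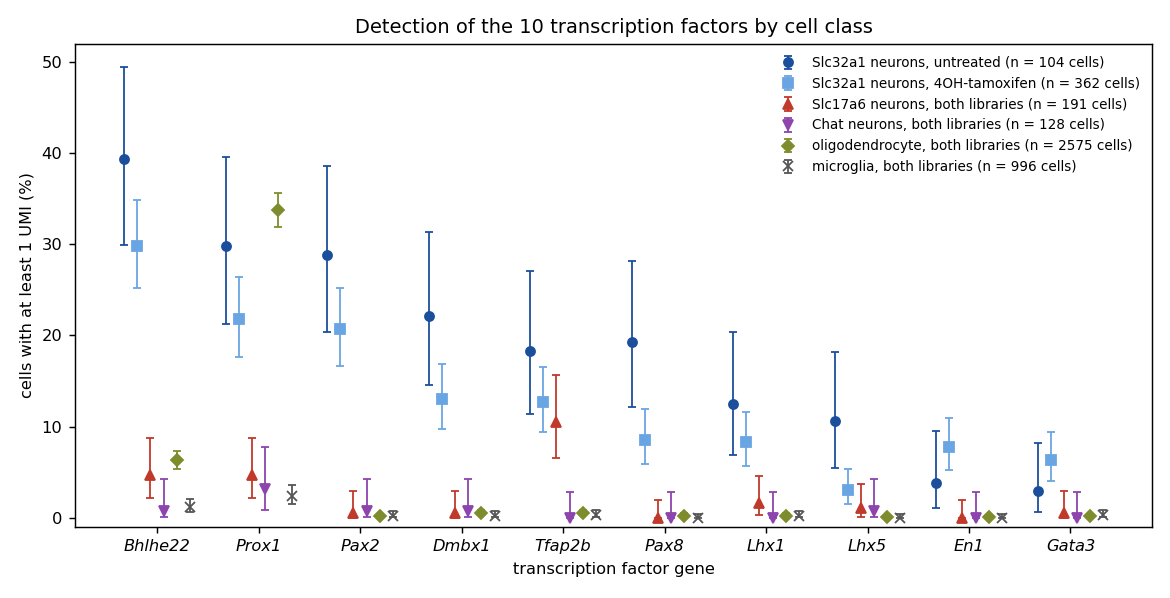
Points give, for each gene (x axis), the percentage of cells with at least 1 UMI (y axis), and bars the exact 95% binomial interval, which covers counting error only. Blue points are *Slc32a1* neurons of each library, and the other symbols are *Slc17a6* neurons, *Chat* neurons, oligodendrocytes and microglia of both libraries together. *Tfap2b* also stands at 10.5% of *Slc17a6* neurons and *Prox1* at 33.8% of oligodendrocytes.

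Levels were compared as UMIs of the gene per 1000000 UMIs of a class (CPM), and a gene was called higher where its CPM was at least 2 times that of the other class in each library, with a UMI sum under 3 set to 3. Medians of log2 ratios use the same floor, whereas a ratio printed with an interval is that of the counts themselves. Genes needed at least 10 UMIs over both classes in each library, which left out *En1* and *Gata3*. Against *Slc17a6* neurons, 6 of the 8 remaining members were higher in *Slc32a1* neurons (*Pax2*, *Pax8*, *Lhx1*, *Dmbx1*, *Prox1* and *Bhlhe22*) and 0 were lower, where 1.39% of the 9809 genes compared were higher and 2.24% were lower by the same rule. The median log2 ratio was 3.09 for the 8 members and -0.01 for all genes, both as descriptions, since the members were chosen for their presence in these neurons.

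*Bhlhe22* was at 132 CPM (118 to 147) in *Slc32a1* and 8.21 CPM (3.75 to 15.6) in *Slc17a6* neurons, a ratio of 16.1 (8.39 to 35.6). By library the *Bhlhe22* ratio was 19.5 untreated and 14.5 with 4OH-tamoxifen. *Prox1* was at 86.3 CPM and 12.8 CPM, a ratio of 6.76 (3.94 to 12.6), and *Lhx1* at 22.4 CPM and 6.38 CPM, a ratio of 3.51 (1.59 to 9.12). *Lhx1* had 20 and 4 UMIs in the untreated library, so that its ratio there, 2.36, had an interval from 0.79 to 9.48.

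*Pax8* had 0 UMIs in 191 *Slc17a6* neurons. A count of 0 was taken to allow up to 3 cells, here 1.57% of cells with a UMI, and the exact interval reached 1.91%. With 0 set to the floor of 3 UMIs, *Pax8* was 10.7-fold higher in *Slc32a1* neurons over both libraries. The floored ratio was 5.50 untreated and 5.33 with 4OH-tamoxifen, where fewer UMIs bear on it. *En1* also had 0 UMIs there, with floored ratios of 6.87 over both libraries and 5.76 with 4OH-tamoxifen. Its 6 untreated UMIs gave a floored ratio of 0.94, and the 4 untreated *Gata3* UMIs against 0 gave 0.63. Such floored ratios are not limits of an interval. *Pax2*, *Dmbx1* and *Gata3* had 1 UMI each in *Slc17a6* neurons, and their ratios were 58.7 (10.4 to 2337), 66.2 (11.7 to 2631) and 16.7 (2.81 to 675). With that single UMI set to 3 they were 19.6, 22.1 and 5.55. *Lhx5*, with 24 and 2 UMIs, had a ratio of 5.26 (1.31 to 45.9), or 3.51 with the floor, and was not called. These low counts left wide intervals, whose lower limits were 10.4 for *Pax2* and 11.7 for *Dmbx1*. In this 3′ chemistry a UMI stands for 1 transcript end whatever the transcript's length, so the CPM of different members can be set side by side, apart from differences in capture between transcripts.

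*Tfap2b* was the member with the lowest ratio, and the only one under 1. It stood at 57.6 CPM (48.5 to 67.8) in *Slc32a1* neurons and 62.0 CPM (48.2 to 78.6) in *Slc17a6* neurons, a ratio of 0.93 (0.69 to 1.26), and was not called, with 68.1 against 84.6 CPM untreated and 52.1 against 48.9 CPM with 4OH-tamoxifen. Its cells among the *Slc17a6* neurons were few: 20 of 191 (10.5%, 6.51 to 15.7%). Of the 20 *Slc17a6* neurons with *Th* or *Dbh*, genes of catecholamine synthesis, 17 had *Tfap2b* (85.0%, 62.1 to 96.8%; 5 of 5 untreated and 12 of 15 4OH-tamoxifen), against 3 of the 171 others (1.75%, 0.363 to 5.04%). *Tfap2b* stood at 318 CPM (246 to 406) in the cells with *Th* or *Dbh* and at 3.36 CPM (0.693 to 9.82) in the rest. This split by *Th* and *Dbh* was chosen after the values were seen. The cells with *Th* or *Dbh* had a median of 8943 UMIs and the others 4512.

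Of the 65 *Slc32a1* neurons with *Tfap2b*, 43 had *Dmbx1*, a pair that took part in choosing the members. None of the 20 *Slc17a6* neurons with *Tfap2b* had *Dmbx1*, *Lhx1* or *Pax8*, and 2 had the peptide gene *Cck*. *Dmbx1*, *Lhx1* and *Pax8* were in only 1, 3 and 0 of all 191 *Slc17a6* neurons. Their absence from the 20 cells therefore says nothing about *Tfap2b*. Among the 466 *Slc32a1* neurons 10 had *Th* or *Dbh*, and 1 of these had *Tfap2b*. That untreated cell also had *Slc17a6* and held all 30 *Dbh* UMIs of the untreated *Slc32a1* neurons, and it gave 4 of the 58 untreated *Tfap2b* UMIs.

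Against *Chat* neurons 5 of 8 members were called higher (*Pax2*, *Dmbx1*, *Tfap2b*, *Prox1* and *Bhlhe22*; 2.91% of all genes compared). *Pax8* and *Lhx1* had 0 UMIs in *Chat* neurons and floored ratios of 7.77 and 5.96 over both libraries. In the untreated library, with 23 *Chat* neurons, their floored ratios were only 1.79 and 1.02. Against the non-neuronal classes all 8 members that passed the filter were higher than in astrocytes (22.4% of genes), endothelial cells (28.8%) and microglia (34.3%). Of the 8, 7 were higher than in oligodendrocytes (29.8%), 7 than in oligodendrocyte precursors (16.7%) and 5 than in pericytes and fibroblasts (22.0%). Since at least 16.7% of all genes were called in these comparisons, little is read from them about the members.

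*Prox1* stood at similar levels in oligodendrocytes and inhibitory neurons. It was found in 870 of 2575 oligodendrocytes (33.8%, 32.0 to 35.7%; 40.1% untreated and 31.8% 4OH-tamoxifen) at 75.8 CPM (71.8 to 79.96), against 86.3 CPM (75.2 to 98.6) in *Slc32a1* neurons, a ratio of 1.14 (0.98 to 1.32). Oligodendrocytes were the deeper class, with a median of 6502 UMIs, and at 2000 UMIs per cell the *Prox1* shares were 11.96% (10.7 to 13.3%) and 14.8% (11.6 to 18.4%). *Prox1* was lower in oligodendrocyte precursors at 31.7 CPM (21.5 to 44.98), in astrocytes at 10.4 CPM and in microglia at 7.61 CPM. The 7 markers of that class (*Mog*, *Mag*, *Cldn11*, *Ermn*, *Opalin*, *Mobp* and *Ugt8a*) summed to 693 CPM in *Slc32a1* neurons with *Prox1* and 824 CPM in those without, and 98.2% and 96.9% of these cells had a UMI of one. The part of oligodendrocyte RNA in the *Prox1* counts of neurons was not tested. *Bhlhe22* was the next most frequent member in oligodendrocytes, in 6.29% (5.38 to 7.30%) at 10.1 CPM, and the other 8 were each in at most 0.505% of them.

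Each pair of members was compared with the number of cells that the product of both shares gives within 3 depth classes of each library. A pair was called seen together more often where it reached 1.5 times that number in each library, with at least 5 cells over both libraries together, and less often where it stayed at or under 0.5 times in each library, with a product of at least 5 cells over both together. Of the 45 pairs, 9 were seen together more often and 12 less often, and 7 pairs were in 0 cells. The count of 12 was 7 in the untreated library alone, 6 with at most 10% mitochondrial UMIs, 4 after thinning and 3 where a member needed at least 2 UMIs. Among the 21 pairs of the 7 members detected in at least 5% of the neurons of each library, 8 were seen more often and 7 less often. Over all pairs of the 8682 genes that met the same minimum, 0.881% were seen more often and 0.22% less often, and over pairs of the 6748 genes in 5 to 50% of the neurons 1.46% and 0.362%. Co-detection took part in choosing the members, so these counts are given with their backgrounds and no more is read from them.

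All 6 pairs of *Dmbx1*, *Tfap2b*, *Lhx1* and *Pax8* were among those seen more often, which describes values that took part in choosing these genes. *Dmbx1* and *Tfap2b* were together in 43 cells (12 untreated, 31 4OH-tamoxifen) against 10.5 from the product, a ratio of 4.10 (2.71 untreated, 5.11 4OH-tamoxifen). *Lhx1* and *Tfap2b* shared 23 cells, a ratio of 3.54 (4.30 and 3.05), and *Pax8* and *Dmbx1* shared 28, a ratio of 3.34 (2.54 and 4.19). The remaining pairs among these genes were *Lhx1* with *Dmbx1* (19 cells, 2.66), *Pax8* with *Tfap2b* (20 cells, 2.63) and *Pax8* with *Lhx1* (13 cells, 2.53). After thinning to 2000 UMIs the ratio of *Dmbx1* with *Tfap2b* was 4.18 on 12 cells.

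*Prox1* and *Bhlhe22* formed a second association, in 72 cells (28 untreated, 44 4OH-tamoxifen), 1.75 times the product in all and 1.73 and 1.76 times by library. These genes were seldom found with the first group. *Lhx1* and *Bhlhe22* were together in 0 cells where the product gave 14.6, *Lhx1* and *Prox1* in 1 (10.6), *Dmbx1* and *Bhlhe22* in 3 (23.3) and *Dmbx1* and *Prox1* in 3 (17.3). *Tfap2b* and *Bhlhe22* shared 4 cells against 21.5, *Tfap2b* and *Prox1* 5 against 15.9, and *Pax8* and *Prox1* 3 against 13.4. *Pax8* and *Bhlhe22*, with 9 cells against 18.2, was not called, since its ratio was 0.35 untreated and 0.62 with 4OH-tamoxifen.

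*En1* and *Gata3*, the V1 and V2b genes, were seldom found with *Pax2*, *Prox1* or *Bhlhe22*. Neither was in any of the 105 *Pax2* neurons, where the product gave 7.77 and 6.85 cells, nor in any of the 51 *Pax8* neurons. Their pairs with *Dmbx1*, *Tfap2b*, *Lhx1* and *Pax8* had products of 2.85 to 4.52 cells. These are under the 5 needed, so they could not be called less often, and none was called more often. *En1* was with *Dmbx1* in 1 cell (4.52 from the product) and with *Tfap2b* in 1 (4.37). *Gata3* was with *Dmbx1* in 1 (3.61) and with *Tfap2b* in 0 (3.66). *En1* was with *Prox1* in 1 cell (7.25 from the product), and *Gata3* was with *Prox1* in 0 (6.24) and with *Bhlhe22* in 1 (9.12). These 5 pairs with *Pax2*, *Prox1* or *Bhlhe22* were called, although in the untreated library the product gave only 0.87 to 1.27 cells for each, too few to bear on the call. *En1* with *Bhlhe22*, in 1 cell against 10.3, was not called, since its untreated ratio was 0.64. *En1* and *Gata3* shared 8 cells, all in the 4OH-tamoxifen library, 2.49 times the product, which was not called because no untreated cell had both. *En1* met *Lhx1* in 7 cells, also all 4OH-tamoxifen, at 2.05 times the product, and *Gata3* met *Lhx1* in 4, at 1.29 times.

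*Pax2* crossed the *Dmbx1* and *Prox1* groups. It was with *Dmbx1* in 28 cells, 1.64 times the product (1.67 and 1.63 by library), with *Prox1* in 28 cells, 1.02 times (0.96 and 1.06), and with *Bhlhe22* in 46 cells, 1.22 times, where the libraries lay on opposite sides of 1 (0.78 untreated and 1.48 with 4OH-tamoxifen). *Pax2* with *Pax8* (22 cells, 1.75 times) fell just short of the rule, at 2.03 untreated and 1.495 with 4OH-tamoxifen. *Lhx5* was seen with *Lhx1* in 5 cells, 1.94 times the product, and its other pairs were not called.

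**Figure D3:**
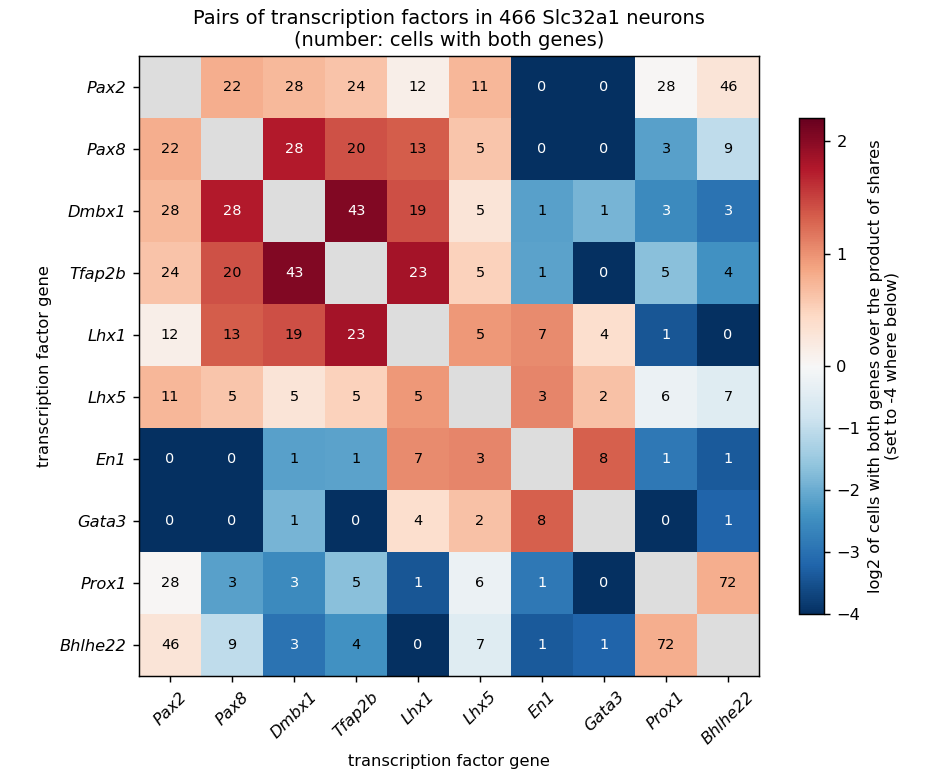
Each square gives 1 pair of genes (both axes) in the 466 *Slc32a1* neurons, with the number of cells that had both genes printed in it and the colour giving the log2 of that number over the product of shares, red above and blue below, set to -4 where lower. Red squares join *Pax8*, *Dmbx1*, *Tfap2b* and *Lhx1*, with 43 cells for *Dmbx1* and *Tfap2b*, and blue squares separate them from *Prox1* and *Bhlhe22*, which share 72 cells.

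Grouped in this way, a grouping made after the pairs were seen, 127 neurons had *Dmbx1*, *Tfap2b*, *Lhx1* or *Pax8*, 187 had *Prox1* or *Bhlhe22* and 50 had *En1* or *Gata3*. The *Dmbx1* group overlapped the *Prox1* group in 20 cells and the *En1* group in 11, and the *Prox1* and *En1* groups overlapped in 3. *Prox1* or *Bhlhe22* was in 15.7% (9.89 to 23.3%) of the *Dmbx1* group and 49.3% (43.8 to 54.7%) of other neurons. *En1* was in 7.09% and *Gata3* in 3.94% of the *Dmbx1* group, near their 6.87% and 5.58% of all *Slc32a1* neurons. The *Dmbx1* and *En1* groups were thus not shown to be apart. Since the groups were built from the pairs, the counts that follow are a description. In all, 296 neurons were in 1 group, 34 in 2 or more and 136 in none, of which 20 had *Pax2* or *Lhx5* alone or together. *Pax2* was in 33.9% (25.7 to 42.8%) of the *Dmbx1* group, in 27.8% (21.5 to 34.8%) of the *Prox1* group and in 0 of 50 cells of the *En1* group, where the limit of 3 cells allows up to 6.00% of cells with a UMI.

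Transmitter genes differed between the groups. Of the neurons with *Tfap2b*, 93.8% had *Gad1*, which makes GABA, but 26.2% (16.03 to 38.5%; 3 of 19 untreated, 14 of 46 4OH-tamoxifen) had *Slc6a5*, the neuronal glycine transporter, against 66.6% (61.7 to 71.2%) of the neurons without *Tfap2b*. *Slc6a5* stood at 81.0 CPM (55.1 to 115) in *Tfap2b* neurons and 330 CPM in all *Slc32a1* neurons. *Dmbx1* neurons were alike, with *Slc6a5* in 28.6% (18.4 to 40.6%), and *Pax8* neurons had it in 39.2% (25.8 to 53.9%). *Slc6a5* was in 79.1% of *Prox1*, 79.9% of *Bhlhe22*, 84.4% of *En1* and 80.8% of *Gata3* neurons, while *Gad1* was least frequent in *En1* (68.8%) and *Gata3* (61.5%) neurons. However, *Gad1* was in 89.4% of all untreated and 73.5% of all 4OH-tamoxifen *Slc32a1* neurons. The 4OH-tamoxifen library gave 28 of the 32 *En1* and 23 of the 26 *Gata3* neurons, so this order is not separated from library.

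Neurons with *Dmbx1*, *Tfap2b*, *Lhx1* or *Pax8* often had *Cck*, the gene of the neuropeptide cholecystokinin. *Cck* was in 67.7% (54.9 to 78.8%; 16 of 19 untreated, 28 of 46 4OH-tamoxifen) of *Tfap2b* neurons and 8.23% of the rest, in 61.4% of *Dmbx1*, 51.2% of *Lhx1* and 51.0% of *Pax8* neurons, and in 0.909% of *Prox1* neurons. The zinc finger homeobox gene *Zfhx3* was in 67.1% of *Dmbx1*, 62.8% of *Lhx1* and 56.9% of *Pax8* neurons, in 39 of the 65 *Tfap2b* neurons and in 5.45% of *Prox1* neurons. *Bcl11a* was in 47.1 to 51.2% of these 4 sets of neurons, and *Gbx1*, a homeobox gene of dorsal inhibitory neurons, in 27.1% of *Dmbx1* and 27.9% of *Lhx1* neurons against 2.02% and 3.55% of those without. *Sst*, the gene of somatostatin, was in 4.29% of *Dmbx1* and 6.15% of *Tfap2b* neurons.

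The profile of *Prox1* and *Bhlhe22* neurons differed from that of *Dmbx1* and *Tfap2b* neurons. The contrast with *Pax8* was less clear, since 9 of the 51 *Pax8* neurons (17.6%) also had *Bhlhe22*. *Sst* was in 73.6% (64.4 to 81.6%) of *Prox1* and 69.8% (61.7 to 77.0%) of *Bhlhe22* neurons, and in 30.9% and 27.4% of those without. The nuclear factor I gene *Nfia* was in 97.3% of *Prox1* and 94.0% of *Bhlhe22* neurons, against 178 of the 356 neurons without *Prox1* and 45.7% of those without *Bhlhe22*, and *Nfix* was in 84.5% of *Prox1* neurons against 29.2%. *Skor1*, a corepressor gene of dorsal interneurons, was in 45.6% of *Bhlhe22* neurons against 7.57%, and *C1ql2*, which encodes a secreted synaptic protein, in 55.5% of *Prox1* neurons (29 of 31 untreated, 32 of 79 4OH-tamoxifen) against 9.83%. The genes parted over *Fst*, the gene of follistatin, which was in 21.5% of *Bhlhe22* and 3.64% of *Prox1* neurons, while *Tacr3*, a tachykinin receptor gene, was in 31.5% and 42.7%.

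*En1* and *Gata3* neurons shared *Satb1*, a chromatin organizer gene, in 84.4% (67.2 to 94.7%) and 73.1% (52.2 to 88.4%) of cells, against 25.8% and 27.3% of the cells without each. *Ndnf* was in 53.1% and *Crhbp*, which encodes a corticotropin-releasing hormone binding protein, in 43.8% of *En1* neurons, all of them in the 4OH-tamoxifen library, where 28 of the 32 *En1* neurons were found. *Tal1* and *Gata2*, which act with *Gata3* in V2b neurons, were in 7 and 4 of the 26 *Gata3* neurons (26.9% and 15.4%) against 1.82% and 0.682% of the others. *Penk*, the gene of enkephalin, was in 38.5% of *Gata3* neurons, and *Chat* in 5 of 26 (19.2%), against 3.41% of the *Slc32a1* neurons without *Gata3*. These shares rest on 32 and 26 cells, whose median depth was 6799.5 and 6714 UMIs against 4431.5 in all *Slc32a1* neurons.

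**Figure D4:**
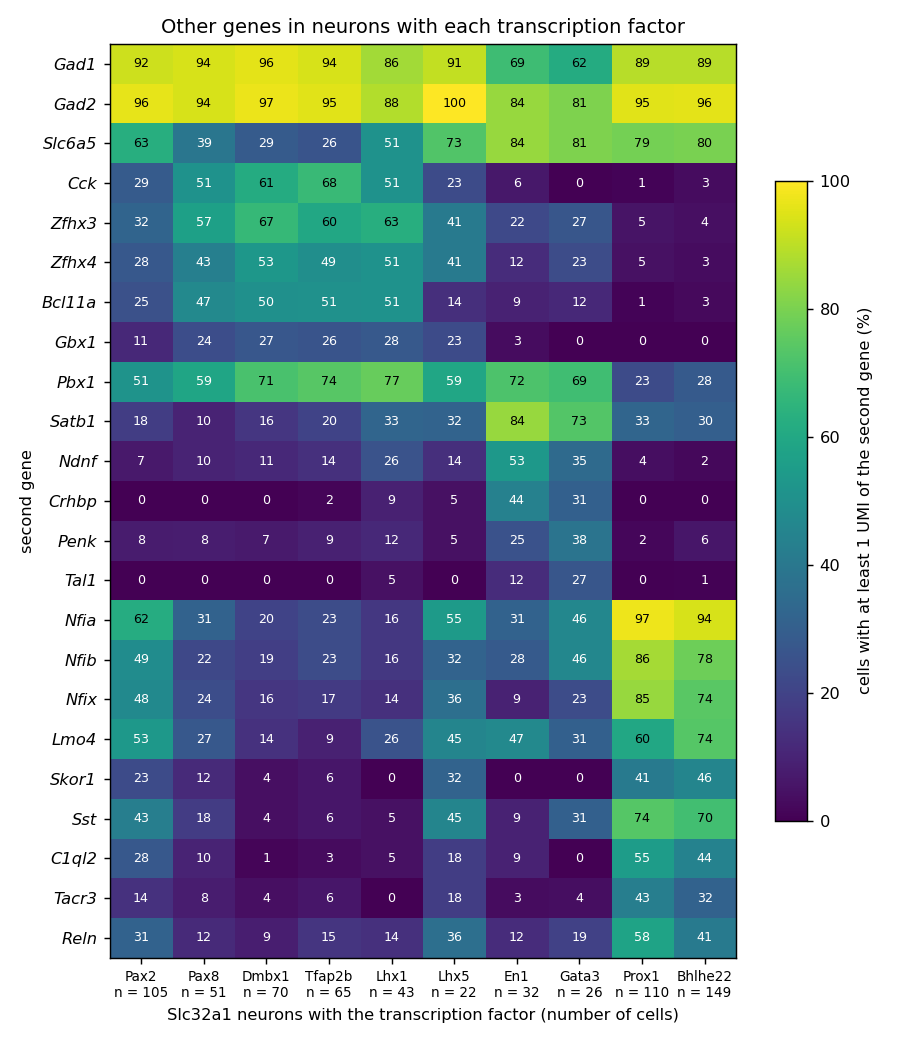
Each square gives the percentage of the *Slc32a1* neurons with a transcription factor (columns, with the number of cells) that had at least 1 UMI of a second gene (rows). *Cck* and *Zfhx3* are high in the *Pax8* to *Lhx1* columns, *Satb1* in *En1* (84.4%) and *Gata3* (73.1%), and *Nfia* and *Sst* in *Prox1* and *Bhlhe22*, while *Slc6a5* is lowest in *Tfap2b* neurons (26.2%).

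The genes most like each member over the *Slc32a1* neurons were found by Pearson's r of log2 scaled counts, taking the lower r of the libraries (104 untreated and 362 4OH-tamoxifen cells). Cells within a library share its depth and its pool of mice, and r is given as a description. *Tfap2b* was most like *Cck* (0.72 untreated, 0.48 4OH-tamoxifen), *Mpped2* and *Syt4*, and *Dmbx1* most like *Cck* (0.57 and 0.57), *Coch* and *Mpped2*. *Lhx1* was most like *Tfap2b* (0.60 and 0.31), *Mpped2* and *Lhx1os*, and *Pax8* most like *Dmbx1* (0.48 and 0.40), *Lhx1os* and *Cck*. *Lhx1os*, which starts next to *Lhx1* in the window printed above, was in 67.4% (51.5 to 80.9%) of *Lhx1* neurons and 15.1% of the others. It was not limited to them, being also in 43.8% of *En1* and 38.5% of *Gata3* neurons but in 1.82% of *Prox1* neurons.

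*Prox1* was most like *Epha5* (0.63 and 0.50), *Nfix* and *Thsd7a*, and *Bhlhe22* most like *Nfia* (0.57 and 0.48), *Ogfrl1* and *Epha5*. *En1* was most like *Satb1* (0.38 and 0.39), *Gpr26* and *Shisa9*, and *Pax2* most like *Cyp26b1*, a retinoic acid degrading enzyme gene found in 74.3% of *Pax2* neurons and 34.3% of the others (r of 0.32 and 0.28). The next genes for *Pax2*, *Olfm1* (0.21 and 0.28) and *Nxph4* (0.28 and 0.20), had a lower r. For *Gata3* (*Grm5*, *Pde2a* and *Rad23b*) and *Lhx5* (*Dtnbp1*, *Ppp4r4* and *Eid2*) the lower r was at most 0.22. Values of r this low, those of *Olfm1* and *Nxph4* included, are too weak in counts this sparse to be read.

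Of a list of 37 factors known from other inhibitory lineages, 36 were in the files and 8 had enough UMIs to be compared with *Slc17a6* neurons, of which 3 were higher in *Slc32a1* neurons (*Lmo4*, *Gbx1* and *Skor1*) and 0 lower, where 1.39% of all genes were higher and 2.24% lower by the same rule, here and for the lists that follow. *Lmo4* was at 255 CPM against 90.3 CPM, a ratio of 2.82 (2.28 to 3.53), and *Skor1* had 122 UMIs against 1. Of 24 broadly expressed late factors 21 could be compared, 2 were higher (*Nfia* and *Bcl11b*) and 2 lower (*Meis1* and *Zic1*). The median log2 ratios of these 2 lists were 1.27 and 0.39, against -0.01 for all genes. Of the 6 of 7 transmitter genes that could be compared, 4 were higher and 1 lower, with *Slc32a1* and *Slc17a6* themselves used as gates. Of 23 peptide and group genes 20 could be compared, 6 were higher (*Sst*, *Tac2*, *Tacr3*, *C1ql2*, *Fst* and *Lamp5*) and 5 lower (*Penk*, *Tac1*, *Gal*, *Vip* and *Cartpt*).

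Some members differed in level between the libraries. With counts in *Slc32a1* neurons of both libraries compared, 3 of 10 members were past 2-fold, where 7.06% of the 11304 genes compared were past it in either direction. The count of 3 was 1 after thinning to 2000 UMIs and 4 with at most 10% mitochondrial UMIs. *En1* was at 7.04 CPM (6 UMIs) in untreated and 24.9 CPM (41 UMIs) in 4OH-tamoxifen neurons, a ratio of 3.53 (1.49 to 10.2), and *Gata3* at 4.69 CPM (4 UMIs) and 20.6 CPM (34 UMIs), a ratio of 4.39 (1.57 to 17.0). *Lhx5* was at 15.3 CPM and 6.67 CPM, a ratio of 0.44 (0.18 to 1.06). *Pax8* (0.56, 0.34 to 0.91) and *Dmbx1* (0.57, 0.41 to 0.79) were lower within 2-fold with intervals under 1, and the intervals of *Bhlhe22*, *Prox1*, *Pax2*, *Tfap2b* and *Lhx1* held 1. *Satb1*, the gene most like *En1*, was at 49.3 CPM and 144 CPM, a ratio of 2.92 (2.09 to 4.15), and *Crhbp* had 1 UMI in untreated and 57 in 4OH-tamoxifen neurons. *C1ql2*, often found with *Prox1*, went the other way with a ratio of 0.37. Treatment, batch and mice cannot be told apart in these differences.

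**Figure D5:**
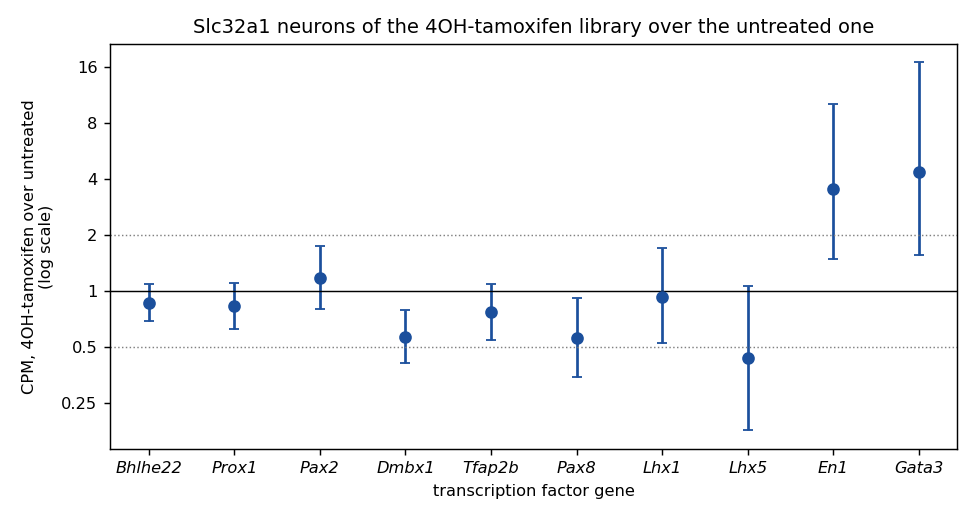
Points give the CPM in *Slc32a1* neurons of the 4OH-tamoxifen library over that in the untreated library (y axis, log scale) for each gene (x axis), and bars the exact 95% interval, which covers counting error only. Dotted lines mark 2-fold; *En1* (3.53) and *Gata3* (4.39) lie above them, *Lhx5* (0.44) lies below, and the other 7 genes lie between.

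Cells near the edge of the *Slc32a1* class held fewer members. Of the 94 neurons with a single *Slc32a1* UMI, 46 had a member (48.9%, 38.5 to 59.5%; median 3268 UMIs), against 304 of the 372 with 2 or more (81.7%, 77.4 to 85.5%; median 4942 UMIs). Among neurons with no *Slc32a1*, *Slc17a6* or *Chat* UMI, a member was found in 23 of the 78 with *Gad1*, *Gad2* or *Slc6a5* (29.5%, 19.7 to 40.9%; median 2473 UMIs) and in 53 of the 676 without (7.84%, 5.93 to 10.1%; median 2413 UMIs). A further 189 cells had an *Slc32a1* UMI but lacked the neuronal genes or fell in a non-neuronal class. Of these, 43 had a member (22.8%, 17.0 to 29.4%), and in 29 of them it was or included *Prox1*.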

How the data were processed

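Single cells were captured with 10X Genomics 3′ v2 chemistry. The authors converted reads with bcl2fastq 2.18.0.12, aligned them to the 10X mm10 reference (GRCm38) and counted UMIs per gene and barcode with Cell Ranger 2.2.0, and these counts were deposited without normalization (18496942 untreated and 34704167 4OH-tamoxifen UMIs in 3767 and 10241 barcodes). Cells with at least 800 genes, at most 50 hemoglobin UMIs and at most 20% mitochondrial UMIs were kept, and Scrublet, run in scanpy 1.11.5, removed 6 and 544 doublets. Non-neuronal cells had at least 5 UMIs of 1 marker list and 3 times those of every other list. No clustering was used. Intervals are Clopper-Pearson for shares, exact Poisson for CPM and exact conditional for ratios (scipy 1.17.1), all at 95%. For calls, medians and floored ratios a UMI sum under 3 was set to a floor of 3 counts over the class. Ratios and pair calls were tested on simulated data. No p-value is given, since cells are not replicates.

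The members, and the lists of other factors, were chosen with earlier results of these data known. Genes named beside the members were the 3 with the highest lower r of the libraries (genes in at least 5% of *Slc32a1* neurons of each) and those of 4 lists (other inhibitory factors, late factors, transmitter genes, and peptide and group genes) that were called or were in at least 10% of the neurons or of a subset with a member. A further list is not reported here. *Th* and *Dbh* were added after their values were seen. Of the alternatives tried, the narrower pair background was chosen after seeing the data. Promoter windows are from RefSeq, and 8 of the 10 members had an entry.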

Additional observations from a re-analysis of the deposited data

Results flagged for a closer look

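The CPM ratio of *Tfap2b* in *Slc32a1* over *Slc17a6* neurons was 0.80 untreated and 1.07 with 4OH-tamoxifen, on opposite sides of 1. The difference between the libraries was not tested, and the interval of each ratio holds 1 (0.52 to 1.27 and 0.71 to 1.63).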

How the results depend on the processing

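No paired analysis was possible because each condition has 1 library and no result comes from a test. The alternatives were 15 settings, 2 of which took each library on its own. With at most 10% mitochondrial UMIs, 252 *Slc32a1* neurons remained of 466, 6 pairs were seen together less often in place of 12, and 4 members in place of 6 were higher than in *Slc17a6* neurons, with *Lhx1* at a log2 ratio of 0.81 in place of 1.81. Without the neuronal genes and the exclusion of non-neuronal classes, 60% of cells with *Slc32a1* had a member, in place of 75.1%. In that setting 5 members were higher than in *Slc17a6* neurons. With at least 2 *Slc32a1* UMIs the share with a member was 81.7%. When a member needed at least 2 UMIs the share was 42.7% and 3 pairs were seen less often. After thinning to 2000 UMIs, where genes have fewer counts by construction, the share was 57.3%, 3 members in place of 6 were higher than in *Slc17a6* neurons, 4 pairs were seen less often, and 1 member in place of 3 was past 2-fold between libraries. The untreated library on its own held 104 of these neurons, 79.8% with a member, and 7 pairs were seen less often. The number of pairs seen more often stayed within 6 to 12. Under the settings that could change them, 93 of 130 shares of single members stayed within the counting interval, 95 of 120 log2 ratios against *Slc17a6* neurons moved by less than 1.5-fold, and of the members called 0 changed direction. *En1* and *Gata3*, not called, were at -0.08 and -0.67 in the untreated library on its own, with the floor in place of 0 UMIs. Pairs of *En1*, *Gata3* and *Lhx5* rest on the fewest cells.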
